A study of Mus musculus with 28 samples.

Results

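The genes described here encode the proteins of the mitochondrial ribosome, the machine that translates the few messages of the mitochondrial genome. They were taken as all counted genes whose symbol starts with Mrpl or Mrps followed by a digit, with pseudogenes left out, and 77 of the 13519 counted genes met this rule. The annotation lists 78 such genes, and Mrpl53 was not analysed here. Bulk RNA-seq was made from colon organoids of C57BL/6N mice with 4 genotypes. AC organoids carried *VillinCreERT2* and *APCflox/flox*, PAC organoids also *Trp53LSL-R172H/+*, BAC organoids also *BraffloxV600E/+*, and BPAC organoids both of the latter alleles. Each culture was treated with EtOH as vehicle or with 4-HT, the ligand that activates the Cre recombinase, at 3.5 µM over 24 hours, with RNA taken after 3 more days. There were 7 donor mice, 1 for AC and 2 (donors A and B) for each other genotype, with 2 cultures per donor (duplicates 1 and 2), giving 14 cultures and 28 samples, 2 per treatment in AC and 4 in the others. The study describes 2 donors for every genotype and 2 distinct passages, whereas the labels give 1 donor for AC. The labels do not say whether the duplicates are these passages. Cre was expressed from an epithelial promoter, every culture including the EtOH controls carried the floxed *Apc* allele, and no organoids without Cre or without this allele were included, so 4-HT itself and recombination cannot be told apart. The AC cultures came from 1 mouse, and the age of the animals is not given in the sources used here.

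The mitochondrial ribosome has a large subunit, which joins amino acids, and a small subunit, which reads the messenger RNA. Its ribosomal RNAs come from the mitochondrial genome, while all of its proteins are encoded in the nucleus, made in the cytosol and imported. Some of the proteins descend from bacterial ribosomal proteins and others are found only in mitochondria. The ribosome makes core subunits of the respiratory chain, and colonocytes at the crypt surface are known for a high demand for oxidative metabolism.

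Of the 77 genes, 50 encode proteins of the large subunit and 26 of the small subunit. *Mrps18a* and *Mrps30* are named for the small subunit but their proteins lie in the large one, and they were counted there. *Mrps36* was counted in neither, since its protein is known as a component of the α-ketoglutarate dehydrogenase complex. A bacterial homolog is known for 48 of the proteins, and 28 are specific to mitochondria. The genes lie on 17 chromosomes, and all are annotated as protein coding.

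Promoter sequences were available in RefSeq (build GRCm38.p6) for 68 of the 77 genes, as windows of 300 bases from 250 before to 50 after the annotated start. The 150 bases before the start are shown for the member with the highest mean change that had an entry (*Mrpl17*), for the 4 members with the smallest p for the *Braf* allele (*Mrps30*, *Mrpl3*, *Mrps22* and *Mrpl1*), for a pair of the 6 lowest members, without a match (*Mrps36*) and with one (*Mrpl27*), and for *Mrpl45*, *Mrpl58* and *Mrps18a*, which were chosen for their roles. Each is written 5′ to 3′ on the strand of its gene. Capitals mark a match to the NRF1 motif GCGCATGCG or the ETS motif CCGGAAG, searched on both strands.
Mrpl17, chr7:105811088-105811237, minus strand: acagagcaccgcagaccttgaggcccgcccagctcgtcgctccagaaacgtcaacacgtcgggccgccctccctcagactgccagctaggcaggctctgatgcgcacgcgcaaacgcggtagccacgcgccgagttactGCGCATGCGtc
Mrps30, chr13:118387253-118387402, minus strand: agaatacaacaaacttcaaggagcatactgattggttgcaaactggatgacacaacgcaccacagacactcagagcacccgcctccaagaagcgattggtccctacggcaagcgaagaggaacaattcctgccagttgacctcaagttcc
Mrps22, chr9:98601680-98601829, minus strand: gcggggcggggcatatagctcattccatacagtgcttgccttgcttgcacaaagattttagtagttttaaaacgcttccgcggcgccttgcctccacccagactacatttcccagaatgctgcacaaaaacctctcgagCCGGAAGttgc
Mrpl3, chr9:105053118-105053267, plus strand: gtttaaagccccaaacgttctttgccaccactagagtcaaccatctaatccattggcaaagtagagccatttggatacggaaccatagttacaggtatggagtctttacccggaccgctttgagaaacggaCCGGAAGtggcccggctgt
Mrpl1, chr5:96209965-96210114, plus strand: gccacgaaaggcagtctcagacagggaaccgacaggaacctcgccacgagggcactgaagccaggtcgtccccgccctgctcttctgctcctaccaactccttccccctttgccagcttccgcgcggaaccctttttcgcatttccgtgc
Mrps36, chr13:100744660-100744809, minus strand: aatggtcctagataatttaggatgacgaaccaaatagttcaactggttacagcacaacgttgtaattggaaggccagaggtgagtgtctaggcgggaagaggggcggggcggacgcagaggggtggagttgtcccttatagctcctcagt
Mrpl27, chr11:94653641-94653790, plus strand: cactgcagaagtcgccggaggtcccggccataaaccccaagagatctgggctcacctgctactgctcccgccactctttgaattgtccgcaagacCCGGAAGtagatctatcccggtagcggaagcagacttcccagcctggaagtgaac
Mrpl45, chr11:97315566-97315715, plus strand: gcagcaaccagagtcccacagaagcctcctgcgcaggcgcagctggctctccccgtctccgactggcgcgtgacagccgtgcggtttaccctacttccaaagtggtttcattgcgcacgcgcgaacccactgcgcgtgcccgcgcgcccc
Mrpl58, chr11:115403602-115403751, plus strand: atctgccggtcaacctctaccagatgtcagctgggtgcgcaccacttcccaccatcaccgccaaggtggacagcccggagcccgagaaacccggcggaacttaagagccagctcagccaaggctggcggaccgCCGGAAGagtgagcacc
Mrps18a, chr17:46110854-46111003, plus strand: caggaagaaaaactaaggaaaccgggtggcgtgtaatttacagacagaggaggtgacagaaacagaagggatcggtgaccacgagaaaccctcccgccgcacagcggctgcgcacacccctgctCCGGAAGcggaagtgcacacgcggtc

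In *Mrpl17* the NRF1 match began 11 bases before the start. In *Mrps22* and *Mrpl3* the ETS match began 11 and 19 bases before it, and in *Mrpl27*, whose transcript did not pass the test, 55 bases before it. These positions count from the RefSeq start, whereas the gene positions given here come from GENCODE. In GENCODE, 12 of the 150 bases shown for *Mrpl17* and 29 of those for *Mrpl3* lie in exons of the same gene. The NRF1 match of *Mrpl17* and the ETS match of *Mrpl3* fall there. *Mrps30* and *Mrpl1* held no match in their windows, and *Mrps21*, another of the lowest members, held an ETS match 18 bases into the transcript. The stretch shown for *Mrpl1* lies inside the gene in GENCODE, where the gene starts at 96209493. All 150 bases shown for *Mrps30* lie in exons of *B430218F22Rik*, and 126 of those for *Mrpl27* in exons of *Eme1* or *Mrpl27*. The ETS match shown for *Mrpl58* began 17 bases before the start, and a second one began 2 bases before it and ran past the printed stretch. Over the whole windows, 25 of the 68 members (36.8%) held the ETS motif, against 9.93% of the 27025 genes with a window and 19.8% of the 10114 counted genes with one. The NRF1 motif was found in 7 members (10.3%), against 1.95% of all genes and 4.04% of counted genes. The motif AAGATGGCG of YY1 was found in 8 members (11.8%), against 1.64% and 3.57%. The E-box CACGTG, which Myc and its partner Max bind, was found in 5 members (7.35%), against 8.09% and 11.6%. Promoters of the cytosolic ribosomal proteins held the ETS motif in 39.7% of 63 genes, NRF1 in 4.76%, YY1 in 6.35% and the E-box in 9.52%. Promoters of the nuclear-encoded respiratory chain subunits, whose transcripts mostly fell with 4-HT, held ETS in 16 of 64 genes, NRF1 in 12.5%, YY1 in 10.9% and the E-box in 7.81%. These are matches of letters, and binding was not measured.

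The number of reads counted on genes ranged from 20577276 to 40068718 per sample, and the lowest count of any member in any sample was 184. Levels are given as CPM, counts scaled to a common library size, after TMM normalization, and edgeR's quasi-likelihood test was run over the 8 groups with Benjamini-Hochberg adjustment over all genes and a threshold of 0.01. Counts over the whole gene cannot show loss of a floxed exon, and *Apc* lay at 27.9 to 49.7 CPM with EtOH and at 51.4 to 73.8 CPM with 4-HT. Epithelial markers such as *Epcam* (1510 to 3130 CPM) and *Vil1* (517 to 1430 CPM) were present in every sample. Of 14 markers of fibroblasts, endothelium and immune cells, 4 were among the counted genes, and their summed level was 5.50 to 17.2 CPM with EtOH and 1.13 to 6.37 CPM with 4-HT. The 4-HT–treated PAC libraries of duplicate 1 stood apart. Both held counts of *Xist* and of Y-linked genes, while the other libraries of these donors held mainly one or the other. The counts of this pair were closer to each other than those of any other pair. The member counts for PAC, for the mean over the genotypes and for the *Braf* allele, and the mean change per culture, are therefore also given without these libraries. Most values of single genes, the splits of the members, the relation to length and the other gene lists include them. The title of 1 sample, a 4-HT–treated BAC library, has no duplicate number and was taken as duplicate 1.

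With 4-HT, 25 of the 77 genes in BAC and 33 in BPAC rose, shares above those of all genes (20.3% and 22%), whereas the 1 gene in AC and 3 in PAC were below them (3% and 11.2%). None fell in BAC or BPAC, against 21.5% and 23% of all genes. By unadjusted p in either direction, 40 members in BAC and 46 in BPAC were under 0.05, beside 59.4% and 60.9% of all genes. The changes were small, with a median of the members between 0.10 and 0.31 on the log2 scale, and the *Braf* allele effect on the change passed the test for 1 gene. The summed level of the 77 genes was 3787 ± 258 CPM with EtOH and 3981 ± 280 CPM with 4-HT in AC (SD, n = 2). It went from 4025 ± 303 to 4436 ± 357 CPM in PAC, from 4412 ± 96.2 to 4994 ± 214 CPM in BAC and from 4043 ± 428 to 4875 ± 319 CPM in BPAC (SD, n = 4 each). Treatment groups overlapped in AC and PAC and did not overlap in BAC and BPAC. In the duplicate 2 cultures of PAC alone the sums were 3658.4 and 3930.8 CPM with EtOH and 4300.6 and 3996.1 CPM with 4-HT. In bulk samples, a change in the share of cell types and a change in RNA per cell cannot be told apart.

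The change of each culture was computed as the log2 CPM with 4-HT minus that with EtOH in the same culture. Its mean over the 77 genes was above 0 in 14 of 14 cultures. It was 0.081 and 0.071 in the AC cultures. In PAC it was 0.242 for donor A and 0.026 for donor B in duplicate 2. The duplicate 1 values of PAC, 0.179 and 0.124 under the labels of donors A and B, set 4-HT libraries with transcripts of both sexes against EtOH libraries of one sex, and cannot be read as changes within one donor's culture. In BAC it was 0.247 and 0.117 for donor A and 0.227 and 0.150 for donor B. In BPAC it was 0.282 and 0.469 for donor A and 0.228 and 0.154 for donor B, where the duplicate 2 culture of donor A was the highest of all. The EtOH library of this culture also had the highest summed level of markers of other cells, 17.25 CPM against at most 10.71 CPM in any other library, and its part in the change was not tested. The mean over the 8 cultures with the *Braf* allele was 0.234 ± 0.110 and over the 6 without it 0.120 ± 0.079 (SD), and the ranges overlapped. Without the duplicate 1 cultures of PAC the mean was above 0 in 12 of 12 cultures, and the 4 left without the allele had 0.105 ± 0.094, still overlapping. Within duplicate 1 the values were 0.246 ± 0.026 (n = 4) and 0.128 ± 0.049 (n = 3, of which 2 are the PAC cultures just named), with no overlap, and within duplicate 2 they were 0.222 ± 0.165 (n = 4) and 0.113 ± 0.114 (n = 3), with overlap.

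**Figure D1:**
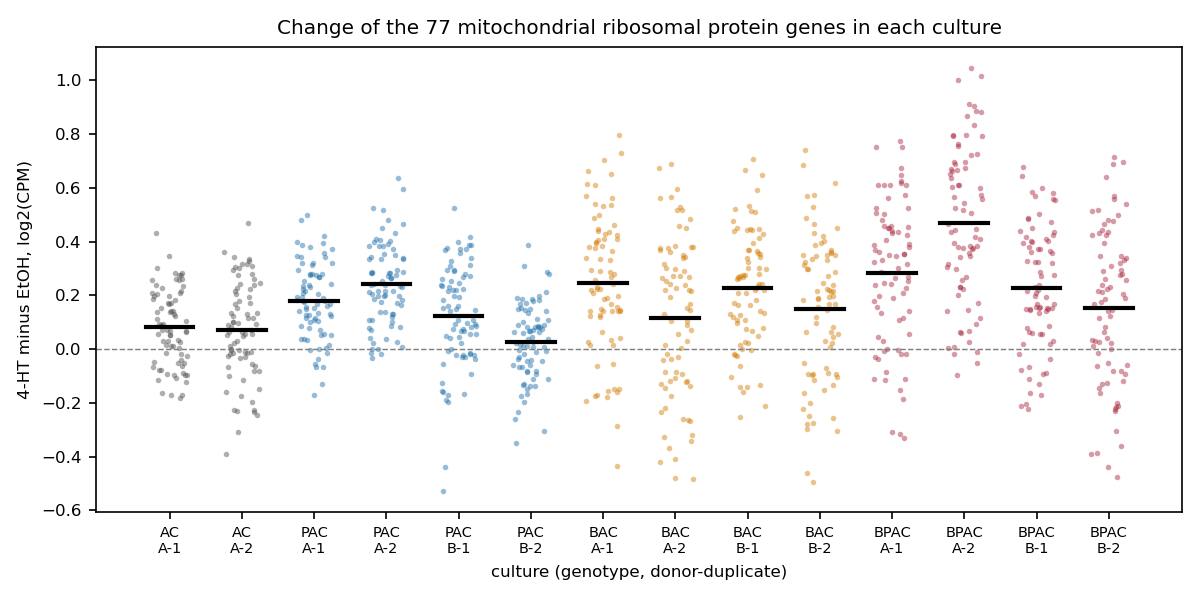
Change of each of the 77 genes (4-HT minus EtOH, log2 CPM, vertical axis) in each of the 14 cultures (horizontal axis, by genotype, donor and duplicate). Each point is 1 gene and the black bar is the mean over the genes, which lies above 0 in every culture, from 0.026 in PAC B-2 to 0.469 in BPAC A-2.

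In AC organoids 1 of the 77 genes rose and none fell, while 3% of all tested genes rose and 4.25% fell. The gene was *Mrpl38*, a large subunit protein specific to mitochondria. It lay at 62.1 and 64.5 CPM with EtOH and at 83.7 and 83.0 CPM with 4-HT, and the groups did not overlap. Its log2 fold change was 0.40 ± 0.10 (SE, adjusted p = 0.00903). Leaving out a single culture of any genotype brought the count to 0 in 12 of 14 cases. The median log2 fold change of the members was 0.10, against 0.01 for all genes, and 54 of 77 were above 0, compared with 50.7% of all genes. By unadjusted p, 10 members were under 0.05, and 30.8% of all genes were.

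In PAC organoids 3 members rose and none fell, against 11.2% of all genes up and 12.2% down. They were *Mrpl19* (0.37 ± 0.09, adjusted p = 0.00263) and *Mrpl17* (0.38 ± 0.10, adjusted p = 0.00333), both large subunit proteins with bacterial homologs, and *Mrps7*, a small subunit protein named after its values were seen (0.32 ± 0.09, adjusted p = 0.00875). The member median was 0.15, against -0.03 for all genes, and 65 of 77 were above 0, beside 47.6% of all genes. With the culture as a replicate block, 13 members rose, while 16.5% of all genes did. Without the duplicate 1 cultures no member passed (median 0.14), with or without the block, and 0.163% and 3.03% of all genes rose. Leaving out the duplicate 1 or the duplicate 2 culture of donor A alone also gave 0, with 6.12% and 9.57% of all genes up.

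In BAC organoids 25 members rose and none fell, while 20.3% of all genes rose and 21.5% fell. The member median was 0.21, against -0.04 for all genes, with a range from -0.36 to 0.72, and 60 of 77 were above 0, beside 47.9% of all genes. With the replicate block 34 rose and 3 fell, *Mrpl14*, *Mrps6* and *Mrps21*, against 25.3% of all genes up and 26.7% down. In duplicate 2 alone 6 rose, while 10.6% of all genes did.

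BPAC organoids gave the highest count, with 33 members up and none down, while 22% of all genes rose and 23% fell. The member median was 0.31, against -0.04 for all genes, with a range from -0.22 to 0.71, and 64 of 77 were above 0, beside 48.1% of all genes. All 25 members that rose in BAC also rose in BPAC, as did 90.8% of the 2751 genes that rose in BAC. With the replicate block 44 rose, and 26.7% of all genes did. Without the culture of donor A in duplicate 2, which had the highest mean change, 28 rose, while 21.2% of all genes did, and the median was 0.26. In duplicate 2 alone 15 rose, while 10.7% of all genes did. A total of 44 members rose in no genotype, beside 74.8% of all genes, 51 were above 0 in all 4 and 8 were below 0 in all 4, against 34.2% and 36.7% of all genes.

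Averaged over the 4 genotypes with equal weight, 39 members rose and 3 fell, against 28.8% of all genes up and 30.6% down. The member median was 0.18 and that of all genes -0.02. Without the duplicate 1 cultures of PAC 35 rose and 1 fell (*Mrpl14*), with 26.5% of all genes up and 28% down. Per culture, 28 members were higher with 4-HT in all 14 cultures and none was lower in all 14, against 18.5% and 19.5% of all genes, and 30 were higher in all of the 12 cultures left without these, against 19.7%. The changes of single members were alike between genotypes, with Pearson's r across the 77 genes of 0.95 between BAC and BPAC, 0.89 between AC and BAC and 0.69 between AC and PAC. Genes are not independent replicates, and no test was made of these values.

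The members with the highest mean change were *Mrpl19*, *Mrpl17*, *Mrps22*, *Mrpl16*, *Mrps18b* and *Mrpl38*. *Mrpl19* (chromosome 6, 81957851 to 81965958, minus strand, GRCm38) encodes a large subunit protein with a bacterial homolog. With EtOH it lay at 38.6 and 42.0 CPM in AC, at 36.8 to 41.5 CPM in PAC, at 38.2 to 39.6 CPM in BAC and at 29.5 to 40.8 CPM in BPAC. With 4-HT it lay at 47.0 and 52.4 CPM in AC, at 45.6 to 54.8 CPM in PAC, at 62.3 to 63.6 CPM in BAC and at 55.3 to 69.4 CPM in BPAC. The treatments did not overlap in any genotype, and with 4-HT every culture with the *Braf* allele was above every culture without it. Its log2 fold change was 0.51 ± 0.05 over the 4 genotypes (SE, adjusted p = 3.68e-09). The gene shares up to 1962 bp of exon with *Gcfc2* on the other strand, and whether the counting used strand is not given in the sources used here.

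*Mrpl17* (chromosome 7, 105803206 to 105811099, minus strand), whose promoter window carries the NRF1 match shown above, lay at 73.8 and 72.2 CPM with EtOH and at 91.0 and 89.3 CPM with 4-HT in AC. In BPAC it lay at 78.6, 62.7, 78.9 and 74.4 CPM with EtOH and at 132, 106, 126 and 116 CPM with 4-HT. Every culture rose, by 0.172 to 0.756 on the log2 scale. Its mean log2 fold change was 0.51 ± 0.05 (adjusted p = 9.79e-09). *Mrps22* encodes a small subunit protein specific to mitochondria, and the value was 0.46 ± 0.05 (adjusted p = 1.19e-08), up in 14 of 14 cultures. *Mrpl16*, a homolog of a bacterial large subunit protein, had 0.45 ± 0.06, and *Mrps18b*, one of 3 relatives of bacterial S18, had 0.44 ± 0.08. *Mrpl38* had 0.42 ± 0.04 and was higher in 13 of 14 cultures, with the duplicate 2 culture of PAC donor A as the exception (-0.033).

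**Figure D2:**
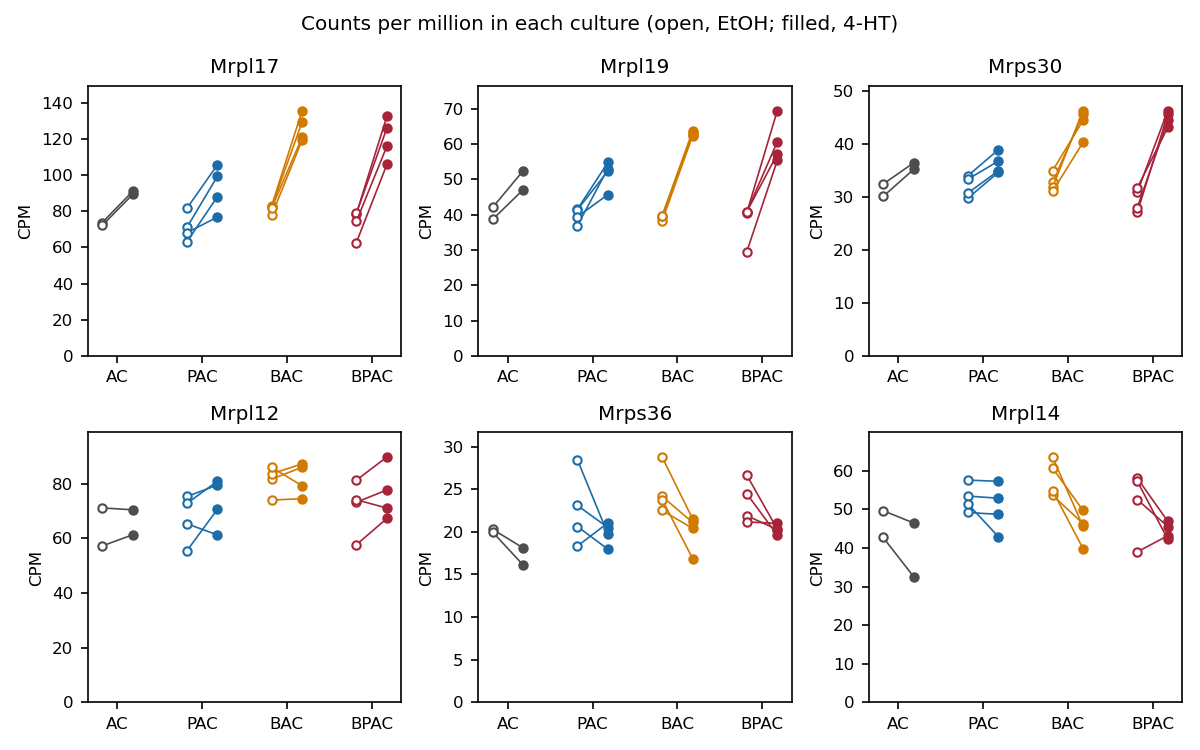
Level in CPM (vertical axis, from 0) of 6 members in each culture, by genotype, with a line joining the EtOH (open) and the 4-HT (filled) sample of 1 culture. Mrpl17, Mrpl19 and Mrps30 rose in every culture, Mrpl12 moved in both directions, and Mrps36 and Mrpl14 were lower with 4-HT in 13 of 14 cultures each.

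The members that fell were *Mrps36*, *Mrpl14* and *Mrps6*. *Mrps36* (chromosome 13, 100735955 to 100744659, minus strand), which is not a ribosomal subunit in function, lay at 20.3 and 19.97 CPM with EtOH and at 18.1 and 16.1 CPM with 4-HT in AC. In BAC it lay at 22.5, 23.8, 24.2 and 28.8 CPM with EtOH and at 20.4, 16.9, 21.1 and 21.5 CPM with 4-HT. The groups did not overlap in AC, BAC or BPAC and overlapped in PAC. Its mean log2 fold change was -0.24 ± 0.06 (adjusted p = 0.0021), and without the duplicate 2 culture of AC the adjusted p was 0.018. Without the duplicate 1 cultures of PAC it was -0.19, with an adjusted p of 0.012.

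*Mrpl14*, a homolog of a bacterial large subunit protein at the subunit interface, had -0.22 ± 0.07 (adjusted p = 0.0057) and was lower in 13 of 14 cultures. Its call was lost when 1 of 6 cultures was left out, AC A-2, PAC B-2, BAC B-2, BAC A-2, BPAC A-1 or BPAC B-2, with adjusted p up to 0.0306. It was -0.234 (adjusted p = 0.00835) without the duplicate 1 cultures of PAC. *Mrps6*, a small subunit protein with a bacterial homolog, had -0.19 ± 0.06 (adjusted p = 0.00638), and its call was lost without 1 of 7 cultures, both of AC, both of PAC donor B, both of BAC donor A or BPAC A-1, with adjusted p up to 0.0293. It was -0.172 (adjusted p = 0.0214) without the duplicate 1 cultures of PAC. It shares 159 bp of exon with *Slc5a3* on the same strand, and reads there could be assigned to either gene. With library size alone *Mrps36*, *Mrpl14* and *Mrps6* no longer passed, and the 4 lowest members by mean change lay near 0, as *Mrps36* had -0.031, *Mrpl14* -0.010, *Mrps21* 0.006 and *Mrps6* 0.020. *Mrps21*, a small subunit protein, had -0.20 ± 0.07 (adjusted p = 0.0127), and with the replicate block the same change passed (adjusted p = 0.000589). *Mrpl30* and *Mrpl27*, the latter from near the catalytic centre of the large subunit, had values of -0.11 each, with adjusted p of 0.0562 and 0.219.

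Of the 7 members chosen for their roles *Mrps36* fell, and *Mrps30* rose by 0.36 ± 0.04. *Mrpl45*, which anchors the ribosome to the inner membrane at the tunnel exit, rose by 0.21 ± 0.04 (adjusted p = 1.68e-05) and was higher in 14 of 14 cultures. *Mrpl12*, the stalk protein that contacts elongation factors, had 0.07 ± 0.07 (adjusted p = 0.383), between -0.117 and 0.349 in single cultures. *Mrpl58*, a peptidyl-tRNA hydrolase built into the large subunit that rescues stalled ribosomes, had 0.13 ± 0.07 (adjusted p = 0.104). *Mrps12*, which lies at the decoding centre, had 0.12 ± 0.06 (adjusted p = 0.0927), and *Mrps18a* had 0.13 ± 0.06 (adjusted p = 0.0566), which passed with the replicate block (adjusted p = 0.00253).

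The genes were also split by subunit and by origin. Over the 4 genotypes, 25 of 50 large subunit genes rose and 1 fell (median 0.19), and 14 of 26 small subunit genes rose and 1 fell (median 0.18), beside 28.8% of all genes up and 30.6% down. In BPAC 23 of 50 and 10 of 26 rose, with medians of 0.32 and 0.25, and 22% of all genes did. Of the 48 proteins with a bacterial homolog 24 rose and 2 fell (median 0.18), and of the 28 specific to mitochondria 15 rose and none fell (median 0.20). These splits were not tested against each other.

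The change was higher in members with longer transcripts. Across the 77 genes, Pearson's r between the mean change and the log2 length of the annotated principal transcript was 0.44, and Spearman's rho was 0.42, whereas across the 13479 annotated genes r was 0.045. It was 0.44 to 0.45 in AC, BAC and BPAC and 0.22 in PAC (rho 0.13), and 0.24 for the cytosolic ribosomal proteins and 0.20 for the respiratory chain subunits. The 38 members with transcripts shorter than the median of 1316 bp had a median change of 0.14, with 15 up and 3 down, and the 39 others had a median of 0.23, with 24 up and none down. Of all genes, 28.8% rose and 30.6% fell in this comparison. All 3 members that fell are in the shorter class. When each sample was corrected for length and GC content, 49 members rose and 1 fell, with 32.4% of all genes up and 31.1% down. *Mrps36* then had -0.12 (adjusted p = 0.0721) and *Mrps6* -0.13 (adjusted p = 0.0902).

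**Figure D3:**
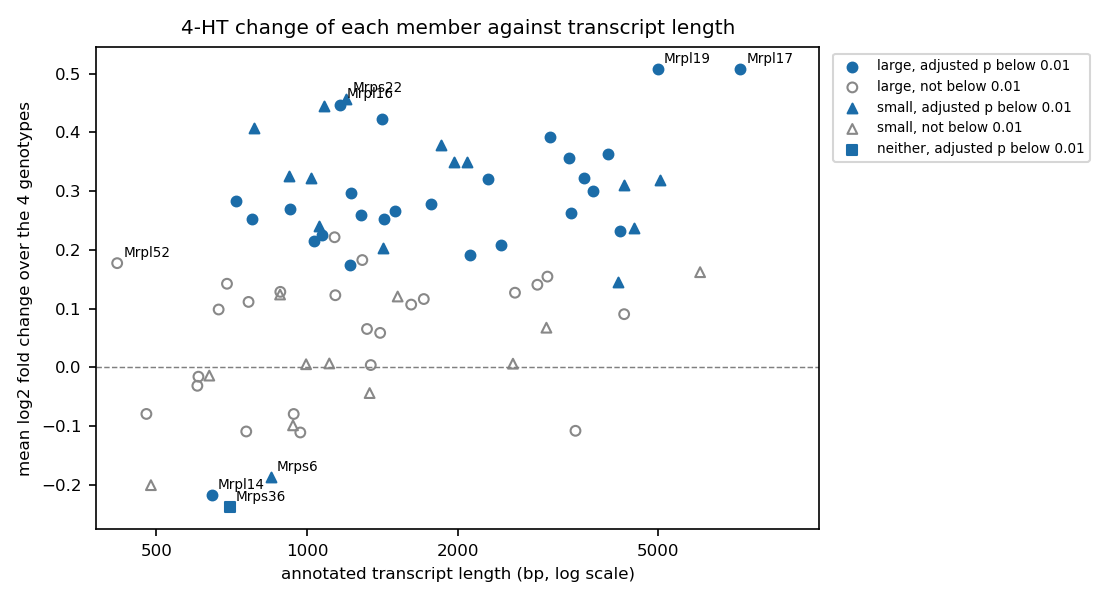
Mean log2 fold change with 4-HT over the 4 genotypes (vertical axis) against the length of the annotated transcript in bp (horizontal log axis) for the 77 genes, filled where the adjusted p was below 0.01. The 3 genes that fell, Mrps36, Mrpl14 and Mrps6, have transcripts of 701, 645 and 846 bp, and the highest, Mrpl19 and Mrpl17, of 5000 and 7300 bp.

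Levels between genes were compared as CPM per kb of annotated transcript, averaged over the 28 samples. The highest were *Mrpl42* (173 CPM per kb), *Mrpl28* (144 CPM per kb) and *Mrpl52* (141 CPM per kb), all of the large subunit, and the lowest were *Mrps25* (7.20 CPM per kb) and *Mrpl47* (7.07 CPM per kb). The order depends on the annotated length, and the lowest genes have long annotated transcripts. *Mrps25* shares up to 3533 bp of exon with *Nr2c2*, and *Mrpl47* shares exon with *Actl6a* and *Ndufb5*, all on the opposite strand. *Mrpl28* rose by 0.22 ± 0.05 (adjusted p = 0.000542) and *Mrpl47* by 0.26 ± 0.06 (adjusted p = 0.000258). *Mrpl42* had 0.10 ± 0.04 (adjusted p = 0.0489), *Mrpl52* 0.18 ± 0.08 (adjusted p = 0.0564) and *Mrps25* 0.16 ± 0.06 (adjusted p = 0.0152). Across the members the change had no clear relation to the mean level (Spearman's rho -0.11).

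To ask if the response depended on the *Braf* allele, the average change of AC and PAC was subtracted from that of the 2 genotypes that carry it. The result was above 0 in 62 of 77 members, with a median of 0.11, against -0.01 for all genes, of which 48.7% were above 0. It passed the threshold for 1 member and was below 0 for none that passed, while 3.05% of all genes passed upward and 3.55% downward. The gene was *Mrps30* (chromosome 13, 118378381 to 118387252, minus strand), a large subunit protein specific to mitochondria, which shares 601 bp of exon with *B430218F22Rik* on the other strand. It lay at 30.1 to 32.4 CPM in AC and at 29.8 to 34.0 CPM in PAC with EtOH, and at 35.2 to 36.4 CPM and 34.6 to 38.9 CPM with 4-HT. In BAC it went from 31.0 to 34.9 CPM up to 40.3 to 46.3 CPM, and in BPAC from 27.1 to 31.7 CPM up to 43.1 to 46.3 CPM. The culture changes were 0.140 to 0.225 without the *Braf* allele and 0.347 to 0.750 with it, and they did not overlap. The difference was 0.33 ± 0.08 on the log2 scale (SE, adjusted p = 0.00664). When 1 culture was left out it ranged from 0.310 to 0.360, and the call was lost in 9 of 14 cases, with adjusted p up to 0.0555. These were both AC cultures, PAC A-1, PAC B-1, PAC B-2, BAC B-1, BAC A-1, BPAC A-1 and BPAC B-1. Without the duplicate 1 cultures of PAC it was 0.324, with an adjusted p of 0.0175, and the 1 member that then passed was *Mrps5*, a small subunit protein named after its values were seen (0.312, adjusted p = 0.00866), with 2.79% of all genes upward.

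The next smallest p values were those of *Mrpl3* (0.32 ± 0.08, adjusted p = 0.0133), *Mrps22* (0.36 ± 0.10, adjusted p = 0.015) and *Mrpl1*, a protein of the flexible L1 stalk (0.34 ± 0.10, adjusted p = 0.0196). With the replicate block 9 members passed, against 6.51% of all genes upward. They were *Mrpl17*, *Mrpl3*, *Mrpl22*, *Mrps30*, *Mrpl19*, *Mrps22*, *Mrps18b*, *Mrpl1* and *Mrps26*, of which *Mrpl22* and *Mrps26* were named after their values were seen. The adjusted p of *Mrpl3*, *Mrps22* and *Mrpl1* became 0.00338, 0.00577 and 0.00857. DESeq2 also gave 9 members, and called 5.56% of all genes upward. With the counts of each donor summed, in duplicate 1 alone and in duplicate 2 alone no member passed, with medians of 0.17, 0.12 and 0.12, and 2.18%, 1.55% and 0.0814% of all genes rose.

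**Figure D4:**
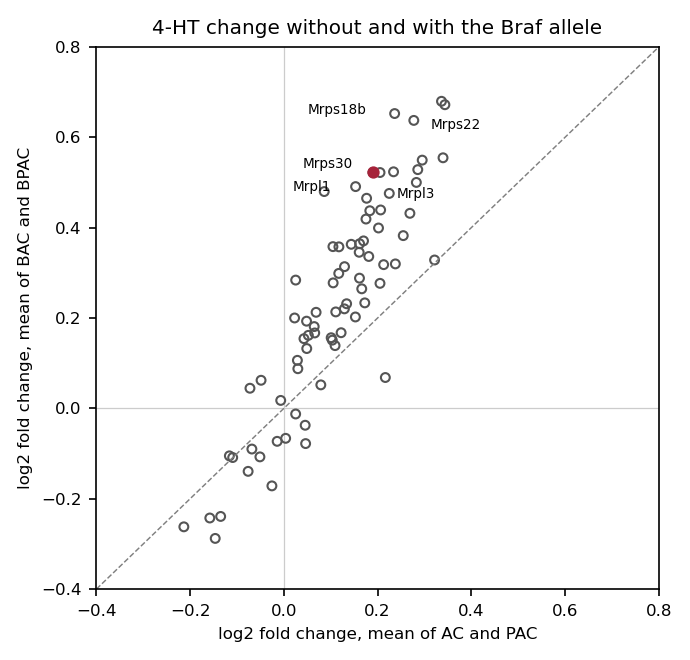
Log2 fold change with 4-HT of each of the 77 genes, as the mean of AC and PAC (horizontal axis) and of BAC and BPAC (vertical axis), with the line of equal change dashed. Of the points 62 lie above the line, and Mrps30 (filled) is the one whose difference passed the threshold of 0.01.

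With EtOH alone no member differed by *Braf* allele in edgeR (22 had an unadjusted p under 0.05, beside 17.2% of all genes), where 0.0296% of all genes passed, and limma-voom called 0. DESeq2 called 1, *Mrps6* (0.352, adjusted p = 0.00911), with 0.207% of all genes higher and 0.215% lower. The median difference was 0.10, and 71 of 77 were above 0, beside 0.019 and 54.4% for all genes. With 4-HT 30 members were higher with the allele and none was lower, while 15.6% of all genes were higher. The median was then 0.23, and 76 of 77 were above 0, beside 0.002 and 50.2% for all genes. When the duplicate 1 cultures of PAC were left out 36 were higher, while 15.2% of all genes were. The count was 18 without the duplicate 2 culture of AC (10.1% of all genes) and 5 in duplicate 2 alone (3.83%). These comparisons are between different mice. For the *Trp53* allele no member passed in edgeR, limma-voom or DESeq2, no member had an unadjusted p under 0.05, and 0.0148% of all genes passed. The smallest p values were those of *Mrpl18* (0.19 ± 0.09) and *Mrpl24* (0.14 ± 0.08), both with an adjusted p of 1. The median was 0.07, and 68 of 77 were above 0, beside -0.013 and 46.0% for all genes.

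Other genes that build and serve the mitochondrial ribosome were counted in the same way, beside 28.8% of all genes up and 30.6% down. Of 5 ribosomal proteins with other names, 4 rose over the 4 genotypes and none fell (median 0.27). *Ptcd3* had 0.62 ± 0.05, *Gadd45gip1* 0.54 ± 0.08, *Chchd1* 0.27 ± 0.08 and *Dap3*, a GTP-binding protein of the small subunit, 0.24 ± 0.04, whereas *Aurkaip1* had 0.00 ± 0.05. Of 28 genes for assembly of the ribosome and modification of its RNA, 20 rose and 1 fell (median 0.28). The highest were *Rcc1l* (0.68 ± 0.07) and *Noa1*, a GTPase (0.65 ± 0.06), and *Mpv17l2*, an inner membrane protein linked to assembly, fell by 0.42 on the log2 scale. Of 20 mitochondrial aminoacyl-tRNA enzymes 14 rose and 1 fell (median 0.29), with *Yars2* at 0.69 ± 0.06 and *Lars2* at -0.90 ± 0.21. *Lars2* had group means of 5760 to 22100 CPM, against 28.3 to 59.9 CPM for *Yars2*, with an SD of up to 15500 CPM, and it fell along with the mitochondrial ribosomal RNA. Whether all reads counted there come from this gene was not tested. Of 10 genes for transcription and upkeep of mitochondrial DNA 9 rose and 1 fell (median 0.35), with the topoisomerase *Top1mt* at 0.78 ± 0.08, the helicase *Twnk* at 0.72 ± 0.06, the packaging factor *Tfam* at 0.25 ± 0.04 and the polymerase subunit *Polg2* at -0.69 ± 0.09. Of 15 translation factors 4 rose and none fell (median 0.05), among them the elongation factors *Tsfm* (0.47 ± 0.06) and *Gfm1* (0.39 ± 0.06).

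Genes of the mitochondrial genome and of the respiratory chain were lower with 4-HT, while of all genes 28.8% rose and 30.6% fell over the 4 genotypes. All 12 counted genes of the mitochondrial genome fell over the 4 genotypes (median -1.41), from *mt-Atp6* (-1.58 ± 0.15) and the small ribosomal RNA *mt-Rnr1* (-1.58 ± 0.40) to *mt-Cytb* (-1.17 ± 0.15). All counted genes whose symbol starts with mt- together held 1.19% to 6.43% of the counts with EtOH and 0.535% to 2.47% with 4-HT. Of 79 nuclear-encoded respiratory chain subunits 70 fell and none rose (median -0.40). In 14 of 14 cultures, and in 12 of 12 without the duplicate 1 cultures of PAC, the mean change of the mitochondrial ribosomal proteins was above that of the respiratory chain subunits. The latter lay between -0.613 and -0.024. The 86 cytosolic ribosomal proteins had a median of 0.19, with 32 up (37.2%) and none down, beside 28.8% and 30.6% of all genes. Their mean per culture ranged from -0.145 to 0.848. It was above 0 in 10 of 14 cultures, compared with 14 of 14 for the mitochondrial ones, and in 8 of 12 without the duplicate 1 cultures of PAC.

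**Figure D5:**
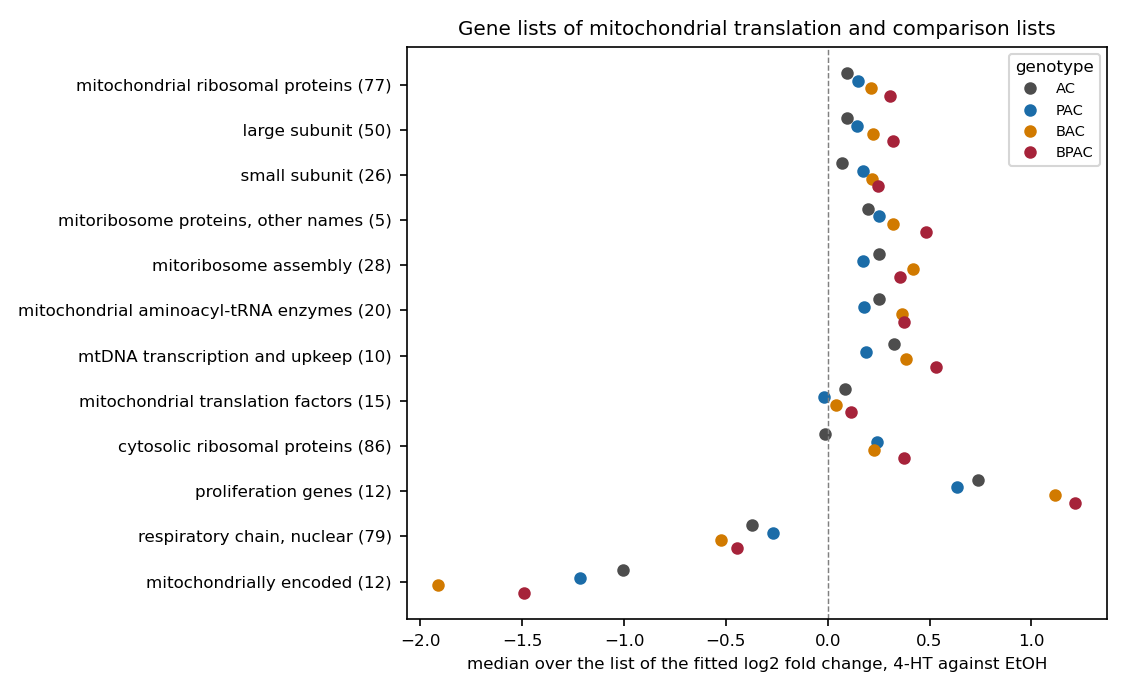
Median log2 fold change with 4-HT against EtOH (horizontal axis) of each gene list (vertical axis, number of genes in brackets), with 1 point per genotype. The lists of mitochondrial ribosomal proteins, assembly and aminoacyl-tRNA enzymes lie above 0 in every genotype, and the respiratory chain and mitochondrially encoded lists lie below 0.

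Transcription factors and coactivators known to act on genes of mitochondrial proteins split, with 5 of 13 up and 6 down, beside 28.8% of all genes up and 30.6% down. *Myc* rose by 1.498 ± 0.104 and the coactivator *Pprc1* by 1.07 ± 0.06, while the coactivators *Ppargc1a* and *Ppargc1b* fell by 0.98 and 0.94 on the log2 scale. Markers of proliferation and of cell type also changed with 4-HT. All 12 proliferation genes rose (median 0.92), with *Mcm2* at 1.20 ± 0.09 and *Mki67* at 0.34 ± 0.08. Their mean per culture was 1.08 ± 0.12 with the *Braf* allele (n = 8) and 0.67 ± 0.18 without it (n = 6), and 0.59 ± 0.12 in the 4 left without the duplicate 1 cultures of PAC. Of the 10 epithelial markers 2 rose and 5 fell (median -0.34), beside 28.8% and 30.6% of all genes. Their summed level was 14350 to 22980 CPM with EtOH and 12330 to 15520 CPM with 4-HT. The stem cell marker *Lgr5* rose by 1.94 ± 0.15 and the surface colonocyte genes *Krt20* and *Slc26a3* fell by 1.88 and 1.78 on the log2 scale, while the keratin *Krt18* rose by 0.43 ± 0.10. Of the 4 counted markers of other cells *Pdgfrb* (at most 13.7 CPM) and *Pecam1* (at most 2.71 CPM) fell, while *Cd3e* and *Cd74* had values of -0.35 and -0.03. The part of any of these in the change of the mitochondrial ribosomal proteins was not tested.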

How the data were processed

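RNA-seq libraries from 28 samples of mouse colon organoids were compared. The authors deposited raw counts per gene without normalization, made from reads trimmed with Trimmomatic 0.39 and aligned to GRCm38 with STAR 2.5.2b. The counting program, its annotation and its strandedness are not given in the sources used here. Symbols, positions and transcript lengths came from GENCODE. After TMM normalization, R 4.3.3 with edgeR 4.0.16 gave the tests (quasi-likelihood, 8 groups of genotype and treatment, adjusted p threshold of 0.01 over 13519 genes). The study's methods name limma and the same threshold, and the design matrix is not given in the sources used here. Log2 CPM per culture used a prior count of 2. The two-sided p-values measure the spread between cultures, 2 of which share each donor. The tests were tested on simulated data.

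Donor and duplicate number tied the EtOH to the 4-HT sample of a culture. Their deviations from the group means correlated with r of 0.245 to 0.532 across genes in every culture, so the culture was also used as a replicate block. The duplicate 1 culture of PAC donor A correlated slightly more with another culture of its genotype (0.26) than with its own partner (0.245), that of donor B nearly as much (0.44 and 0.459), and the value of AC is fixed to be the same for its 2 cultures. Named members were the 6 highest and 6 lowest by mean change, those with the smallest p for the *Braf* (4) and *Trp53* (2) alleles, the 3 highest and 2 lowest per kb, and 7 chosen for their roles. In other lists all genes were named where there were 5 or fewer, and otherwise up to 2 highest and 2 lowest that passed. Members and lists were chosen with earlier results of these data known. Alternatives were limma-voom 3.58.1, DESeq2 1.42.0, other normalizations and filters, other blocks and covariates, subsets of samples, each culture left out, and offsets for length and GC content. Leaving out the PAC cultures of duplicate 1 together with the replicate block was chosen after seeing the data. Promoter windows came from RefSeq. The depth per sample, 20577276 to 40068718 counts, sets counting error only. Figures were drawn with matplotlib 3.10.9.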

Additional observations from a re-analysis of the deposited data

Results flagged for a closer look

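Among 84 sets of 4 cultures (the mean over the members and 27 named members in PAC, BAC and BPAC), 3 had a culture far from the others, and chance alone flags about 1 in 20. *Mrpl14* changed by -0.261 in the PAC culture of donor B, duplicate 2, and by -0.015 to -0.007 in the other three, of which the duplicate 1 cultures hold 4-HT libraries with transcripts of both sexes. *Mrpl38* changed by 0.498 in the BAC culture of donor A, duplicate 1, slightly less than in the others (0.527 to 0.532). *Mrps18a* changed by 0.270 in the BPAC culture of donor A, duplicate 2, against 0.141 to 0.157. The response of *Mrps30* to 4-HT differed by *Braf* allele by 0.332 on the log2 scale in the test of the difference itself.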

How the results depend on the processing

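The medians of the members stayed above 0 in every genotype under each alternative run, whereas the number of members past the threshold varied, and the causes were not tested. With library size alone in place of TMM, the median of all genes over the 4 genotypes went from -0.02 to 0.187, with 5845 genes up and 2659 down in place of 3891 and 4136. Members up were then 11 in AC, 43 in PAC, 41 in BAC, 54 in BPAC and 64 over the 4 genotypes (0 down), beside 11.2%, 25.1%, 28.7%, 32% and 43.2% of all genes, with medians of 0.317, 0.373, 0.38, 0.514 and 0.389, and means per culture of 0.297 (AC), 0.367 (PAC), 0.352 (BAC) and 0.497 (BPAC). The *Braf* allele effect then had 0 members, and *Mrps21* (0.006), *Mrps6* (0.02), *Mrpl30* (0.096) and *Mrpl27* (0.096) changed sign. *Mrpl24*, at 0.00, changed sign to -0.018 with genes of at least 100 mean counts, -0.017 in duplicate 2, -0.011 without the duplicate 1 cultures of PAC (-0.012 with the block), -0.007 with the block without the unnumbered culture, and -0.012 to 0.022 with 1 culture left out, including -0.007 and -0.006.

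In the following, the percentage after a count is the share of all genes that passed in the same direction. AC has 1 donor, so in either duplicate alone and with donors summed each of its arms is 1 sample, assumed to vary like the other groups. In AC, 0 members rose with DESeq2 size factors (2.91%), in duplicate 1 (1.94%), in duplicate 2 (0%), with donors summed (1.45%) and with each genotype fitted alone (0.274%), 2 at an adjusted p below 0.05 (8.18%), and 4 with length and GC offsets and the replicate block (9.79%). In PAC, members up were 7 with DESeq2 (13.4%), 5 with a mean of 100 counts (13.5%), 13 with the replicate block (16.5%), 11 with the block without the unnumbered culture (15.8%), 15 with the duplicate as covariate (15.8%), 10 in duplicate 1 (13.5%), 0 in duplicate 2 (0.0148%), 0 with the genotype alone (6.86%), 0 without the duplicate 1 cultures (0.163%, with the block 3.03%), 14 at an adjusted p below 0.05 (17.6%), 11 with offsets (14.7%) and 22 with offsets and the block (19.4%). In BAC, members up were 6 in duplicate 2 (10.6%), 39 with offsets (25.3%) and 45 with offsets and the block (29%). Members down in BAC were 1 with DESeq2 (22.7%), 3 with the block (26.7%, without the duplicate 1 cultures of PAC 26.5%), 6 at an adjusted p below 0.05 (28.4%) and 2 with the mean of 100 counts (24.3%), the block without the unnumbered culture (22.8%), the duplicate as covariate (25.9%), each genotype alone (21.8%), and offsets with the block (26.5%). In BPAC, members up were 15 in duplicate 2 (10.7%) and 50 with offsets and the block (29.1%). Over the 4 genotypes duplicate 2 gave 24 up (19%) and 0 down (20.1%), and members down were 1 in duplicate 1 (29.3%), without the duplicate 1 cultures of PAC (28%) and with offsets (31.1%), and 5 at an adjusted p below 0.05 (35.1%).

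For the *Braf* allele effect on the change, members up were 2 with DESeq2 size factors (3.33%), 9 with DESeq2 (5.56%), 9 with the replicate block (6.51%), 5 with the block without the unnumbered culture (5.22%) or without the duplicate 1 cultures of PAC (6.21%), 8 with the duplicate as covariate (6.94%), 3 with offsets (5.48%), 13 with offsets and the block (8.87%), 11 at an adjusted p below 0.05 (7.27%) and 0 with the mean of 100 counts (3.28%), in duplicate 1 (1.55%), in duplicate 2 (0.0814%) and with donors summed (2.18%). With 4-HT alone 5 were higher in duplicate 2 (3.83%), and with EtOH alone DESeq2 gave 1 (0.207%). With each culture left out, members up ranged from 0 to 1 in AC (0% to 4.34% of all genes), 0 to 8 in PAC (5.11% to 12.7%), 0 to 4 for the *Braf* allele effect (0.784% to 3.85%) and 18 to 38 for the allele with 4-HT (10.1% to 16.9%), and members down from 0 to 1 in BAC (16.4% to 22.7%) and 0 to 4 over the 4 genotypes (26.4% to 31%). In PAC the highest count came without the duplicate 2 culture of BPAC donor A.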

Other observations

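The summed level of the members also differed between duplicates. In 13 of 14 pairs of samples with one donor label and treatment it was higher in duplicate 1 than in duplicate 2, with EtOH-treated BAC donor A as the exception. The 4-HT–treated PAC pairs are among the 13, and their duplicate 1 libraries hold transcripts of both sexes, so they are not pairs of one donor. The share of counts on mitochondrially encoded genes was lower in duplicate 1 in 13 of 14 pairs, those PAC pairs included, with EtOH-treated BPAC donor A as the exception (1.2% and 1.19%), and its part in the difference was not tested. The lowest sum was that of the EtOH-treated BPAC library of donor A, duplicate 2 (3408 CPM, 0.308% of its counts), the culture with the highest mean change. Members with the ETS motif in their promoter had a median change of 0.12 over the 4 genotypes (8 of 25 up, beside 28.8% of all genes), and those without it 0.22 (24 of 43 up). For the other motifs carriers had the higher median, with 0.28 against 0.16 for NRF1 (7 carriers), 0.25 against 0.16 for YY1 (8 carriers) and 0.22 against 0.16 for the E-box (5 carriers). These values are a description and were not tested.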
